A study of Mus musculus with 47 samples.

Results

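The genes described here encode the subunits of the mitochondrial respiratory chain and of ATP synthase, measured in the lungs of mice challenged with ragweed or with PBS. They were taken by name: every probe set annotated with a single gene symbol that starts with Nduf, Sdh, Uqcr or Atp5, or with Cox4 to Cox8, together with Cycs and Cyc1. On the 6 array tables of the series 274 of 74917 probe sets met that rule, and they stood for 84 of 16366 genes. By complex they were 33 genes of complex I, 7 complex I assembly factors, 4 genes of complex II, 8 of complex III with Cyc1, cytochrome c itself, 16 genes of complex IV and 14 of complex V, the ATP synthase. The remaining gene was Ndufa4l2, a relative of the subunit Ndufa4. No measured value was used to choose them. A further 24 probe sets carried several symbols and were left out.

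The respiratory chain passes electrons from NADH (complex I) and succinate (complex II) through complex III and cytochrome c to oxygen at complex IV, and pumps protons across the inner mitochondrial membrane. ATP synthase lets the protons back and makes ATP. The subunits measured here are those encoded in the nucleus. Most are made in every tissue, but some complex IV subunits exist as a ubiquitous and a muscle form: Cox6a2, Cox7a1 and Cox8b are the forms of heart and skeletal muscle, and Cox7a1 and Cox8b are also known from brown fat. In the lung, cardiac muscle cells are known around the pulmonary veins.

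Sensitization was on days 0 and 3, and intratracheal challenge on days 10 and 17. The ragweed groups received ragweed pollen protein, with alum named for them alone at sensitization, and the control groups received PBS at both steps. The lungs came from mice killed 24 h or 72 h after the last challenge, which gave PBS and ragweed groups at each time with 2 samples each, coded 1a and 1b. The sources used here give no strain, no age and no word on whether 1a and 1b were different mice. The p-values therefore rest on the spread between these samples alone, and that spread may be technical. Total RNA was hybridized to Affymetrix murine U74 arrays A, B and C, in a first version and in version 2. Alveolar type II cell markers, which identify lung, were high in all 8 samples: 11 of 12 were measured and their summed intensity ranged from 275682 to 330856.

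A value is the intensity of a probe set on an array, and its size depends on the probes, so levels were not compared between probe sets. Comparisons used the first-version A table, the only A table with all 4 groups, and the version 2 B and C tables. Values under a floor, the 40th percentile of each table (291.6 on A, 356.4 on B, 244.7 on C), were raised to it, and probe sets above it on at least 2 arrays were tested. Of the 274 probe sets 110 were tested, for 77 of the 84 genes. The others were 132 on the remaining 3 tables, 18 on first-version A with no counterpart on version 2 A, and 14 under the floor. Cox7a2l, Cox8b, Ndufa10, Ndufa11, Ndufa4l2, Ndufaf2 and Ndufaf5 had no tested probe set there. Atp5b, Atp5g3, Cox4i2, Cox7c, Ndufa4 and Uqcrfs1 had no single-symbol probe set and were not analysed here. Whole lung was measured, so fewer cells of a type and less RNA per cell cannot be told apart. Several members were read by probe sets with the suffix f, s, i or r, which can also detect near-identical copies, and their values are uncertain to that extent.

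Across the whole chain the levels in ragweed lungs lay close to those in PBS lungs. With limma and Benjamini-Hochberg adjustment over all 25250 probe sets tested, 0 of the 110 member probe sets passed an adjusted p under 0.05 at 24 h, where 0.23% of all probe sets did, and 0 of 110 passed at 72 h, where 0.527% did. The groups of a time did not overlap in 30 member probe sets at 24 h (27.3%, against 34.2% of all) and in 44 at 72 h (40%, against 35.7% of all). At an unadjusted p under 0.05 there were 7 member probe sets at 24 h (6.36%, against 8.67% of all) and 14 at 72 h (12.7%, against 9.63% of all). With 1 probe set per gene, the median log2 difference of the 77 genes was 0.02 at 24 h and -0.01 at 72 h, beside 0.00 for the 12840 genes tested at both times. At 24 h 41 genes were above 0 and 36 below. At 72 h 34 were above 0 and 43 below. The mean of both times gave 0 of 110 passing (0.65% of all) and 12 at an unadjusted p under 0.05 (10.9%, against 11.1% of all). The difference of the ragweed response between the times gave 0 of 110 (0.0356% of all) and 7 at an unadjusted p under 0.05 (6.36%, against 7.35%).

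The members were measured more precisely than most probe sets, and many intervals were narrow. The median standard error (SE) of a log2 difference was 0.226 for the members and 0.321 for all probe sets. At 24 h the 95% interval of the difference lay within a 2-fold change in either direction for 82 of 110 member probe sets (74.5%), against 48.7% of all. At 72 h it did so for 74 (67.3%), against 47.3% of all. On the A array it did so for 66 of 72 at 24 h and 58 of 72 at 72 h. On the C array, the least precise, it did so for 9 of 28 at 24 h and 11 of 28 at 72 h. For the remaining probe sets a change of 2-fold is not excluded by the interval. The plot of differences by complex shows the genes around 0 at 24 h and the complexes somewhat spread at 72 h.

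**Figure D1:**
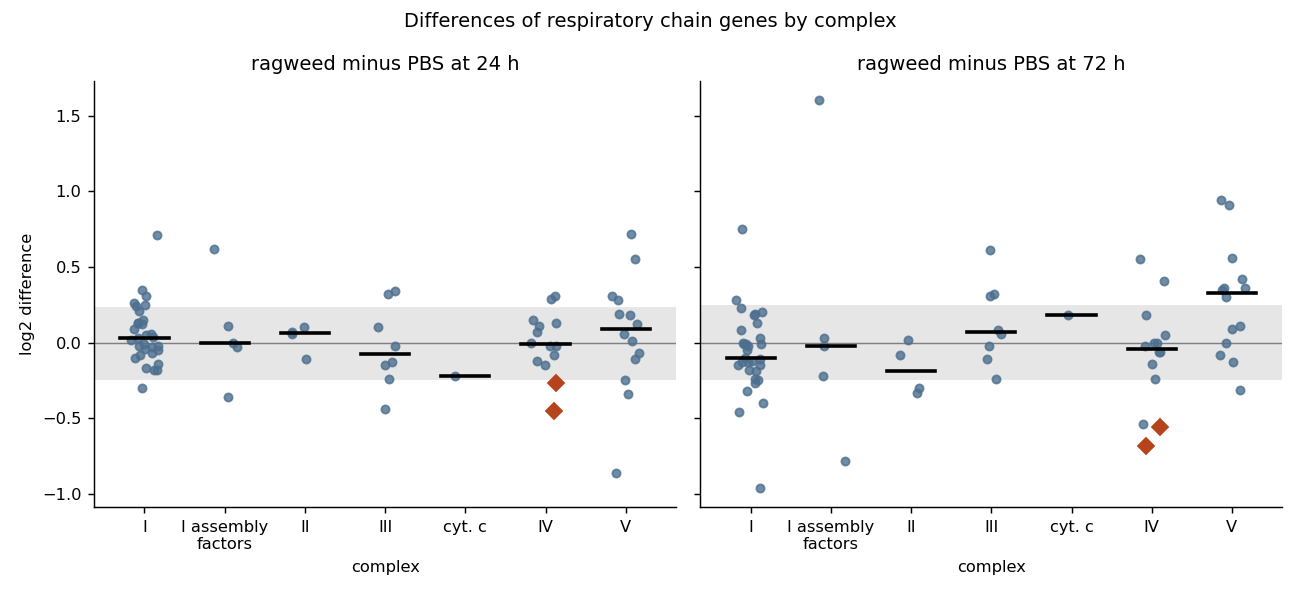
Log2 difference of ragweed minus PBS at 24 h (left) and 72 h (right) for the 77 genes by complex, 1 point per gene, with n = 2 samples per group. Black bars are medians, the grey band spans the middle 50% of all 12840 genes, and red diamonds are the muscle isoforms Cox6a2 and Cox7a1. At 72 h the median of complex V was 0.33 and that of complex I was -0.10.

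Complex I takes electrons from NADH. Its 31 tested genes had a median log2 difference of 0.03 at 24 h, with 17 above 0 and 14 below, and of -0.10 at 72 h, with 9 above 0 and 22 below. At 72 h the ragweed samples did not overlap the PBS samples in 10 genes, 3 higher and 7 lower, where 18% of all probe sets were higher and 17.8% lower without overlap. Ndufv1, the subunit that binds NADH, had intensities of 7437 and 6606 in PBS and 5719 and 7462 in ragweed at 24 h, and of 5892 and 6819 in PBS and 6911 and 5719 in ragweed at 72 h. Its groups overlapped at both times, and its log2 difference at 72 h was -0.01 with a 95% interval from -0.37 to 0.34. Ndufs1, the largest iron-sulfur subunit, had a log2 difference of -0.02 at 24 h and -0.27 at 72 h, with an interval from -0.86 to 0.32 at the later time.

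Ndufs8, an iron-sulfur subunit on the way to ubiquinone, had the lowest log2 difference of all member genes at 72 h. Its intensities were 13690 and 16212 in PBS and 18960 and 14038 in ragweed at 24 h, and 17038 and 19017 in PBS and 9224 and 9330 in ragweed at 72 h. Both ragweed samples of 72 h lay under all 6 others. The log2 difference was 0.13 ± 0.20 (SE, n = 2 per group) at 24 h and -0.96 ± 0.20 at 72 h, with an unadjusted p of 0.000997 and an adjusted p of 0.107 by limma. The difference of the response between the times was -1.09, with an adjusted p of 0.467 by limma. Ndufs8 is read on the C array. The 134 C probe sets with a mean intensity of at least 10000 had a median log2 difference of -0.18 at 72 h, beside 0.05 for the whole C table, and their part in the result was not tested. On these C arrays the ratio of 3' to 5' signal of the actin control was 0.869 and 0.861 in PBS and 1.11 and 1.39 in ragweed at 72 h, and 1.08 and 0.993 in PBS and 1.6 and 1.43 in ragweed at 24 h. The part of this ratio in the values of Ndufs8 was not tested, nor in those of other members on the same arrays, among them Cox5a, Ndufaf6 and Atp5j2. With quantile normalization of the B and C tables Ndufs8 was at -0.79, with an adjusted p of 0.1.

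Of the accessory subunits of complex I, Ndufb8 was at 3391 and 3168 in PBS and at 2329 and 2438 in ragweed at 72 h, with no overlap and a log2 difference of -0.46 ± 0.14 (adjusted p 0.298 by limma). At 24 h its difference was 0.03. On the first version of the A array Ndufb5 was higher in ragweed than in PBS at both times without overlap, with 4063 and 4642 in PBS and 5122 and 5269 in ragweed at 24 h, and 4804 and 4951 in PBS and 5719 and 6109 in ragweed at 72 h. Its log2 differences were 0.26 and 0.28, with adjusted p of 0.496 and 0.396 by limma. On version 2 of the A array the sign at 72 h turned, to -0.20 ± 0.14, with 6714 and 8850 in PBS and 6571 and 6886 in ragweed. Ndufa12 had the largest log2 difference of complex I at 24 h, 0.71 ± 0.30, with 930 and 1238 in PBS and 1875 and 1655 in ragweed, and 0.03 at 72 h. On the first version of the C array Ndufa12 was at 2243 and 1857 in PBS and 473 and 1410 in ragweed at 72 h, a log2 difference of -1.32 ± 0.52 (adjusted p 0.388 by limma). None of these passed the test.

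The complex I assembly factors help build the complex without staying in it, and 5 of 7 were tested. Ndufaf1 was at 419 and at the floor in PBS and at 561 and 516 in ragweed at 24 h. At 72 h it was at 698 and 541 in PBS and at the floor and 438 in ragweed. Ragweed was thus the higher group at 24 h (log2 difference 0.62 ± 0.30) and the lower at 72 h (-0.78 ± 0.30), and the difference of the response between the times was -1.40 with an unadjusted p of 0.00972 and an adjusted p of 0.524 by limma. Ndufaf6, read on the C array, had the largest log2 difference of all member genes at 72 h, 1.60 ± 0.81, with a 95% interval from -0.25 to 3.45. Its PBS samples of 72 h were at 623 and at the floor and its ragweed samples at 967 and 1451, and at 24 h its ragweed samples were at the floor and 1255, so the samples of single groups differed widely.

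Complex II oxidizes succinate and belongs to the citric acid cycle too. With 1 probe set per gene, its 4 genes ranged from -0.11 to 0.10 in log2 difference at 24 h, and from -0.33 to 0.02 at 72 h. The iron-sulfur subunit Sdhb was at 2537 and 3006 in PBS and at 2256 and 2140 in ragweed at 72 h, a log2 difference of -0.33 ± 0.13 without overlap (adjusted p 0.486 by limma). A second Sdhb probe set, on the B array, gave 0.67 at 24 h and 0.04 at 72 h. The flavoprotein Sdha was at or near the floor on its probe set, from 291.6 to 388, and the membrane anchors Sdhc and Sdhd were at -0.08 and 0.02 at 72 h. A second Sdhc probe set, on the B array, was at 0.64 at 24 h and 0.37 at 72 h. A second Sdhd probe set, on the C array, was at -0.11 at 72 h.

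Complex III hands electrons from ubiquinol to cytochrome c. Its 8 genes had a median log2 difference of -0.08 at 24 h and 0.07 at 72 h. The core subunit Uqcrc1 was at 3998 and 3041 in PBS and 3335 and 3549 in ragweed at 24 h, and at 3561 and 3347 in PBS and 3589 and 3625 in ragweed at 72 h. On this probe set the log2 differences were -0.02 and 0.06, and the interval at 72 h ran from -0.25 to 0.37. A second Uqcrc1 probe set, on the B array, was at 0.27 at 24 h and -0.53 at 72 h. On version 2 of the A array the first probe set was at -0.34 ± 0.11 at 72 h (adjusted p 0.335 by limma). The other core subunit, Uqcrc2, was lower in ragweed at 24 h without overlap, at 1376 and 1270 against 1809 and 1772 in PBS (log2 difference -0.44 ± 0.22), and at 0.08 at 72 h. Cyc1, which holds the haem of cytochrome c1, was at -0.24 and -0.02. Cytochrome c (Cycs) was at 437 and 366 in PBS and 332 and 356 in ragweed at 24 h, and overlapped at 72 h, with differences of -0.22 and 0.18.

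The small subunits of complex III differed in sign. Uqcr11 was at 1281 and 1166 in PBS and 1779 and 1951 in ragweed at 72 h, a log2 difference of 0.61 ± 0.18 (unadjusted p 0.0101, adjusted p 0.303 by limma). Uqcr10 was at 2118 and 2380 in PBS and 3123 and 2601 in ragweed at 24 h, and at 3021 and 3018 in PBS and 2617 and 2491 in ragweed at 72 h. Its groups did not overlap at either time, with ragweed above PBS at 24 h (0.34 ± 0.13) and under it at 72 h (-0.24 ± 0.13), and the difference between the times was -0.59 with an adjusted p of 0.53 by limma.

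Complex V, the ATP synthase, had the highest median of the complexes at 72 h. Its 14 genes had a median log2 difference of 0.09 at 24 h and 0.33 at 72 h. At 72 h 10 were above 0 and 4 below, and 6 were higher in ragweed without overlap while 0 were lower, where 18% and 17.8% of all probe sets were. In 8 of the 14 the difference was above 0 at both times. By sample, the median deviation of the 14 genes from their own mean over the 8 samples was -0.16 and -0.05 log2 in PBS and 0.10 and 0.15 in ragweed at 72 h, and -0.01 and -0.12 in PBS and 0.08 and -0.04 in ragweed at 24 h. Atp5a1, the alpha subunit of the catalytic head, was at 7736 and 8447 in PBS and 8073 and 7213 in ragweed at 72 h, a log2 difference of -0.08 with an interval from -0.30 to 0.13.

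Among the other parts of ATP synthase, Atp5c1, the gamma subunit of the rotating stalk, was at -0.11 and 0.09, and Atp5d and Atp5e, the delta and epsilon subunits beside it, at 0.36 and 0.94 at 72 h. Atp5e was at 1271 and 847 in PBS and 1925 and 2062 in ragweed at 72 h, with an SE of 0.35 and an adjusted p of 0.43 by limma. Atp5g1 and Atp5g2, which encode the same subunit c of the membrane ring, were at 0.56 and 0.11 at 72 h and 0.18 and 0.55 at 24 h. Atp5pb, of the peripheral stalk, had the largest difference of all member genes at 24 h, 0.72 ± 0.32, with 1171 and 580 in PBS and 1399 and 1316 in ragweed. Atp5j2, a membrane subunit read on the C array, had the lowest there, -0.86 ± 0.48, with 1009 and 1266 in PBS and 467 and 834 in ragweed.

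Atp5l and Atp5mpl, small membrane subunits of ATP synthase, had the smallest p-values of complex V at 72 h. Atp5l was at 6771 and 7065 in PBS and 8796 and 8858 in ragweed, a log2 difference of 0.35 ± 0.09 (unadjusted p 0.00361, adjusted p 0.195 by limma). On version 2 the same probe set was at 0.08 ± 0.22. A second Atp5l probe set was at -0.34 ± 0.32 on the first version and 0.57 ± 0.18 on version 2. Atp5mpl was at 1816 and 1760 in PBS and 2744 and 4110 in ragweed, a log2 difference of 0.91 ± 0.18 (unadjusted p 0.001, adjusted p 0.107 by limma). At 24 h Atp5mpl was at 2996 and 2693 in PBS, above the PBS samples of 72 h, and at 2143 and 2348 in ragweed. Atp5mpl passed the test at 72 h where only probe sets above the floor on all arrays were kept (adjusted p 0.0323 by limma) and where p-values were adjusted within each table (0.0415). On version 2 of the array its difference was -0.12 ± 0.35, with 2743 and 5545 in PBS and 4140 and 3119 in ragweed.

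**Figure D2:**
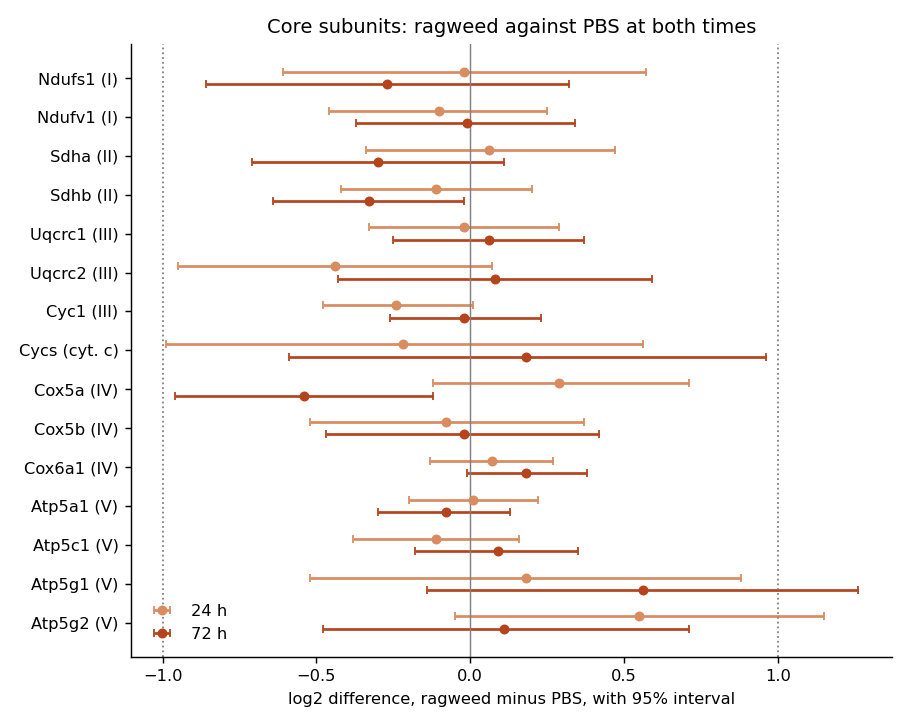
Log2 difference of ragweed minus PBS with its 95% interval for 15 core or ubiquitous subunits, with the complex in brackets, at 24 h (light) and 72 h (dark), n = 2 samples per group. Dotted lines mark a 2-fold change. All intervals at 24 h except that of Atp5g2, and all at 72 h except that of Atp5g1, lie inside the dotted lines.

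Complex IV reduces oxygen to water. Its 14 tested genes had a median log2 difference of -0.01 at 24 h and -0.04 at 72 h. Cox5b was at -0.08 and -0.02, and Cox4i1 at 0.31 and 0.55, with 459 and 406 in PBS and 651 and 609 in ragweed at 72 h (adjusted p 0.595 by limma). Of its other probe sets, one on the A array was at 0.00 at 72 h and one on the B array at 0.65. Cox5a, read on the C array, was at 16768 and 17433 in PBS and 12878 and 10684 in ragweed at 72 h, a log2 difference of -0.54 ± 0.18 without overlap (adjusted p 0.363 by limma), and at 0.29 at 24 h. Under quantile normalization of the C table its difference at 72 h was -0.40.

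The lowest differences of complex IV at both times belonged to a muscle isoform. Cox6a2, the muscle form of subunit 6a, was at 1391 and 2000 in PBS and 1245 and 1200 in ragweed at 24 h, and at 1939 and 1997 in PBS and 1169 and 1299 in ragweed at 72 h. All 4 ragweed samples lay under all 4 PBS samples. In order of group means, PBS at 72 h (1968) came before PBS at 24 h (1696), then ragweed at 72 h (1234.0) and ragweed at 24 h (1222). The PBS groups did not differ from each other beyond their spread (log2 difference 0.24, 95% interval from -0.20 to 0.67), nor the ragweed groups (0.01, from -0.42 to 0.45). The log2 difference of ragweed minus PBS was -0.45 ± 0.19 at 24 h and -0.68 ± 0.19 at 72 h, 1.36-fold and 1.60-fold lower, with adjusted p of 0.556 and 0.263 by limma. The 24 h difference was -0.19 without PBS sample 1b of 24 h and -0.71 without PBS sample 1a, and the 72 h difference stayed between -0.75 and -0.60 when each sample was left out in turn. The mean of both times was -0.56 ± 0.13, with an unadjusted p of 0.00283 and an adjusted p of 0.16 by limma.

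The same probe set is on version 2 of the A array, which has no ragweed samples of 24 h. There Cox6a2 was at 2023 and 1932 in PBS at 24 h, at 2218 and 2325 in the PBS samples of 72 h and at 1219 and 1013 in the ragweed samples of that time. The log2 difference at 72 h was -1.03 ± 0.14 with an adjusted p of 0.0378 by limma, so that Cox6a2 fell on that version, where 95 of 19344 probe sets passed (0.491%). It was the single member to pass on the other version's tables. Arrays of both versions carry the same sample codes, so they were not counted as further samples. On version 2 A the ratio of 3' to 5' signal of the actin control was 0.189 and 0.198 in the PBS samples of 72 h but 0.801 and 0.578 in the ragweed samples of that time. On first-version A it was between 0.798 and 0.968 on all 8 arrays. Its part in the larger difference on version 2 was not tested.

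The ubiquitous counterpart of Cox6a2 was nearly level. Cox6a1 was at 9663 and 9071 in PBS and 10155 and 9513 in ragweed at 24 h, and at 8431 and 8431 in PBS and 9835 and 9314 in ragweed at 72 h. Its log2 difference was 0.07 ± 0.09 at 24 h and 0.18 ± 0.09 at 72 h, with an interval from -0.01 to 0.38 at 72 h that lies wholly above that of Cox6a2 (from -1.11 to -0.24). The difference between the isoforms was not tested by itself. On version 2 Cox6a1 was at -0.27 ± 0.11 at 72 h, the opposite sign. A second Cox6a1 probe set, on the B array, was at -0.09 ± 0.37 at 24 h and -0.1 ± 0.37 at 72 h.

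Cox7a1, the muscle form of subunit 7a, was above the floor in PBS samples only, after quantile normalization. Before that step 1 ragweed sample, of 72 h, was at 309, just over the floor. It was at the floor and 426 in PBS at 24 h, at 366 and 508 in PBS at 72 h, and at the floor in all 4 ragweed samples. On the floored values the log2 difference at 72 h was -0.56 ± 0.22 (adjusted p 0.468 by limma). It was -0.33 without PBS sample 1b of 72 h and -0.80 without PBS sample 1a. At 24 h the difference was -0.27 ± 0.22 with overlap at the floor. On version 2, before quantile normalization and the floor of 238.1, it was at 222 and 616 in PBS and 156 and 283 in ragweed at 72 h, and was not tested there. Cox7a2, the ubiquitous form, was at 3549 and 3628 in PBS and 3366 and 4558 in ragweed at 24 h, and at 3597 and 4427 in PBS and 3224 and 4516 in ragweed at 72 h. On this probe set the groups overlapped at both times, with log2 differences of 0.13 and -0.06. A second Cox7a2 probe set, on the C array, was at -0.18 ± 0.23 at 24 h and -0.24 ± 0.23 at 72 h (adjusted p 0.802 at 72 h by limma). There ragweed was lower at 72 h without overlap, at 2224 and 1927 against 2646 and 2270 in PBS.

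Cox8b, the muscle form of subunit 8, was tested on version 2 of the A array alone. One probe set was at the floor in both PBS samples of 24 h, at 313 and 396 in PBS at 72 h and at the floor in both ragweed samples of 72 h, a log2 difference of -0.56 ± 0.17 on the floored values (adjusted p 0.288 by limma). Before quantile normalization its ragweed samples of 72 h were at 225 and 269, the second of them over the floor, against 316 and 397 in PBS. The other was at 508 and 731 in PBS at 24 h, 584 and 1859 in the PBS samples of 72 h and 615 and 353 in the ragweed samples of that time (-1.16 ± 0.55), and its groups of 72 h overlapped. The 3 first-version probe sets of Cox8b were not tested. Of these, 2 were under the floor on all 8 arrays, from 9.9 to 166 before quantile normalization. The third is not on version 2 and went the other way. Before quantile normalization it was at 484 and 180 in PBS and 496 and 529 in ragweed at 24 h. At 72 h it was at 214 and 417 in PBS and 553 and 469 in ragweed. Ragweed was thus higher without overlap at both times on this untested probe set. The ubiquitous form Cox8a was between 291.6 and 293.9 on all 8 arrays, at or next to the floor, so no difference is read from it.

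**Figure D3:**
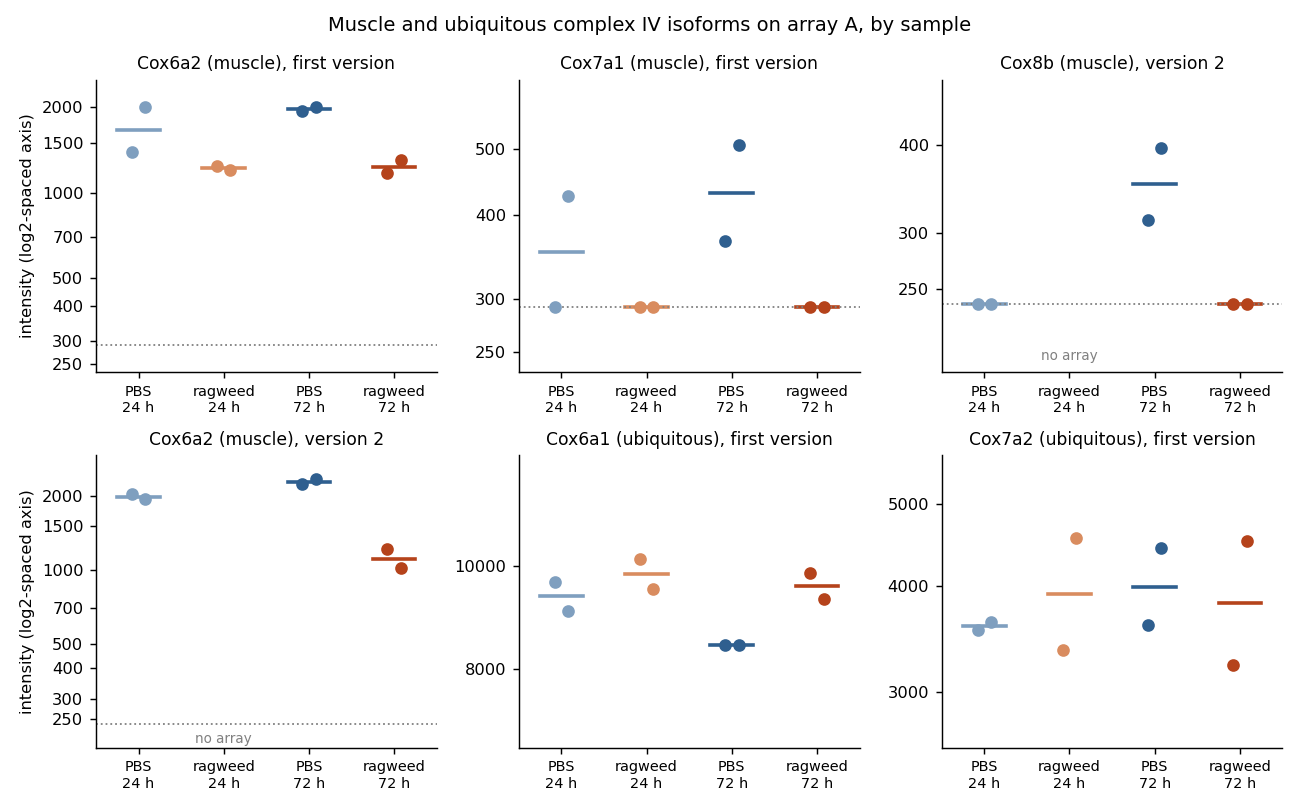
Intensity of muscle and ubiquitous isoforms of complex IV in each sample on array A, on a log2-spaced axis, with bars at the geometric mean of the 2 samples and a dotted line at the floor. Cox6a2 lies lower in ragweed than in PBS at both times on the first version, and at 72 h on version 2, where it fell from 2218 and 2325 in PBS to 1219 and 1013 in ragweed.

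The starts of the isoform genes differ in sequence. The windows from 250 bases before to 50 bases after the start site (RefSeq, build GRCm38.p6, strand of the gene) are shown for the muscle and ubiquitous forms of subunits 7a and 8. These windows were searched on both strands for the letters GCGCATGC (core of the site of NRF1, a regulator of respiratory genes), CCGGAAG (ETS factors, among them NRF2/GABP), AAGATGGC (YY1) and CAGCTG (an E-box of the kind bound by muscle regulators). Capitals mark the matches, also where the match is on the other strand. Cox7a1 is at chr7:30183921-30184220 (plus strand), Cox7a2 at chr9:79759804-79760103 (minus), Cox8b at chr7:140900397-140900696 (minus) and Cox8a at chr19:7217567-7217866 (minus). Cox6a2 is not in the table of promoters used here.
Cox7a1: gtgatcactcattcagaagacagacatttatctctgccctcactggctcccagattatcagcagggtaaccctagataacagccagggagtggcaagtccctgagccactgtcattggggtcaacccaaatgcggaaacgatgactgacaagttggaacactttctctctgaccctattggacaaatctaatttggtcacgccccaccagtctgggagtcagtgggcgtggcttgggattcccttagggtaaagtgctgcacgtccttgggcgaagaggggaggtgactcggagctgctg
Cox7a2: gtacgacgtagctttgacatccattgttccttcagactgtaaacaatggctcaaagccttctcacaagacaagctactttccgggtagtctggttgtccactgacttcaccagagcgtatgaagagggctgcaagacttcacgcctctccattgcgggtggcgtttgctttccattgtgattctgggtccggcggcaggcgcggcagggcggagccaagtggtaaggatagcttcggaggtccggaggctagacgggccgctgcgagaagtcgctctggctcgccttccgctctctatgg
Cox8b: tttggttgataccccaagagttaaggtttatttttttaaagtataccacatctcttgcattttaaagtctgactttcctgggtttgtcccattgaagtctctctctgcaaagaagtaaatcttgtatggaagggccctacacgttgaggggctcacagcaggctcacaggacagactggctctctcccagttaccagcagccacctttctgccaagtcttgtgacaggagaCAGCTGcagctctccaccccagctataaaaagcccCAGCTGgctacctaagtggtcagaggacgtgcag
Cox8a: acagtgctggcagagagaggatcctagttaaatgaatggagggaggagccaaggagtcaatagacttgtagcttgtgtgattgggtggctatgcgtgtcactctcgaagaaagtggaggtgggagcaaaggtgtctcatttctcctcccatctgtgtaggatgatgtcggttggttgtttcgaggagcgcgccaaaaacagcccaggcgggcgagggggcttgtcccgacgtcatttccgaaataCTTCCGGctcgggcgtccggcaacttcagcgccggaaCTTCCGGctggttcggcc
Cox8b holds CAGCTG and none of the other letters, and Cox8a holds CCGGAAG. Cox7a1 and Cox7a2 hold none of the 4. CpG pairs numbered 7 in Cox7a1 and 2 in Cox8b, against 20 in Cox7a2 and 19 in Cox8a. The median was 19 over the windows of member genes and 7 over all windows.

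For the chain as a whole, 68 of the 84 genes had a window. GCGCATGC was in 13 of them (19.1%, against 3.05% of 27025 genes), CCGGAAG in 18 (26.5%, against 9.93%), AAGATGGC in 10 (14.7%, against 3.19%) and CAGCTG in 4 (5.88%, against 18.3%). GCGCATGC and CCGGAAG hold a CpG pair, and AAGATGGC and CAGCTG do not. Windows of member genes had a median of 19 CpG pairs and 58.7% G and C, against 7 and 52.7% over all windows. The part of this base composition in the counts was not tested. For 6 genes with values given here the 30 bases around GCGCATGC are shown, in capitals, on the strand of the gene. They are Uqcrc1 at chr9:108936668-108936697 (plus), Cycs at chr6:50566610-50566639 (minus), Cox6a1 at chr5:115349101-115349130 (minus), Uqcr11 at chr10:80406806-80406835 (minus), Atp5l at chr9:44920963-44920992 (minus) and Sdhb at chr4:140961207-140961236 (plus), on GRCm38.p6.
Uqcrc1: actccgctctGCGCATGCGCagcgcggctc
Cycs: atgctagctcGCATGCGCgcgcacaaacct
Cox6a1: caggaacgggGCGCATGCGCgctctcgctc
Uqcr11: tcgccttcacGCATGCGCtatacgtctgca
Atp5l: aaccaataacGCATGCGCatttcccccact
Sdhb: agcccagtggGCATGCGCcctacgggccgc
The log2 differences of these 6 genes at 72 h were 0.06 for Uqcrc1, 0.18 for Cycs, 0.18 for Cox6a1, 0.61 for Uqcr11, 0.35 for Atp5l and -0.33 for Sdhb. The letters GCGCATGC were shortened from a longer form of the site after its counts had been seen. A match describes the letters of the window and is no evidence of binding.

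The markers of muscle and fat that a lung sample can carry are given beside the isoforms. Of 24 cardiac muscle markers 21 were measured, and none was at the floor on all arrays. Their summed intensity was between 17678 and 19074 in the 4 samples of 24 h, 29440 and 32634 in the PBS samples of 72 h, and 19851 and 19593 in the ragweed samples of 72 h. At 72 h 2 of the 21 were called, where 0.527% of all probe sets were, both lower in ragweed: Nppa, the atrial natriuretic peptide (log2 difference -1.48 ± 0.14, adjusted p 0.00399 by limma), and Myl7, the atrial myosin light chain (-1.31 ± 0.17, adjusted p 0.0209). At 24 h the list's median was 0.04, while Myl7 was at 1505 and 1712 in PBS and 704 and 760 in ragweed (-1.13 ± 0.17, adjusted p 0.0582). Skeletal muscle markers (12 of 18 measured) summed to 13386 and 10104 in PBS and 18367 and 19668 in ragweed at 24 h, and to 22589 and 22176 in PBS and 17336 and 15489 in ragweed at 72 h. With limma 1 of the 12 was called at 24 h, where 0.23% of all probe sets were, and 0 at 72 h. The called gene was Acta1, skeletal actin, at 2406 and 2003 in PBS and 6182 and 7559 in ragweed at 24 h (1.64 ± 0.13, adjusted p 0.00127 by limma). Acta1 was also the 1 of the 12 called between the PBS groups, higher at 72 h, where 0.281% of all probe sets were called. The skeletal sum was lowest in PBS at 24 h. Fat markers (7 of 12 measured) summed to between 3628 and 4819 at 24 h, to 6088 and 6363 in PBS at 72 h and to 4925 and 5848 in ragweed at 72 h. Of the 7 fat markers 0 were called by limma at either time, and their medians were -0.02 at 24 h and -0.48 at 72 h. B and plasma cell markers (8 of 10 measured) summed to 18075 and 17825 in PBS and 52515 and 44913 in ragweed at 72 h, where their part in the members' values was not tested.

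Cox6a2 was lower in ragweed at 72 h, as were the cardiac, skeletal and fat sums. At 24 h it was lower in ragweed while the cardiac sum was level and the skeletal sum was higher. After quantile normalization Cox7a1 was above the floor in PBS samples only, and a Cox8b probe set on version 2 in PBS at 72 h only. Both passed the filter through those samples. That they were highest in PBS at 72 h, as the cardiac, skeletal and fat sums were, was therefore largely fixed in advance. The other Cox8b probe set on version 2 overlapped between the groups of 72 h. An untested Cox8b probe set on the first version was higher in ragweed. Ucp1, the heat-producing carrier of brown fat, was at the floor in all 4 samples of 24 h and at 1046 and 1057 in PBS at 72 h, at least 3.61-fold higher (log2 1.85 ± 0.24, adjusted p 0.0246 by limma). In ragweed at 72 h it was at 328 and 482. The part of muscle or fat tissue in the values of the isoforms was not tested.

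**Figure D4:**
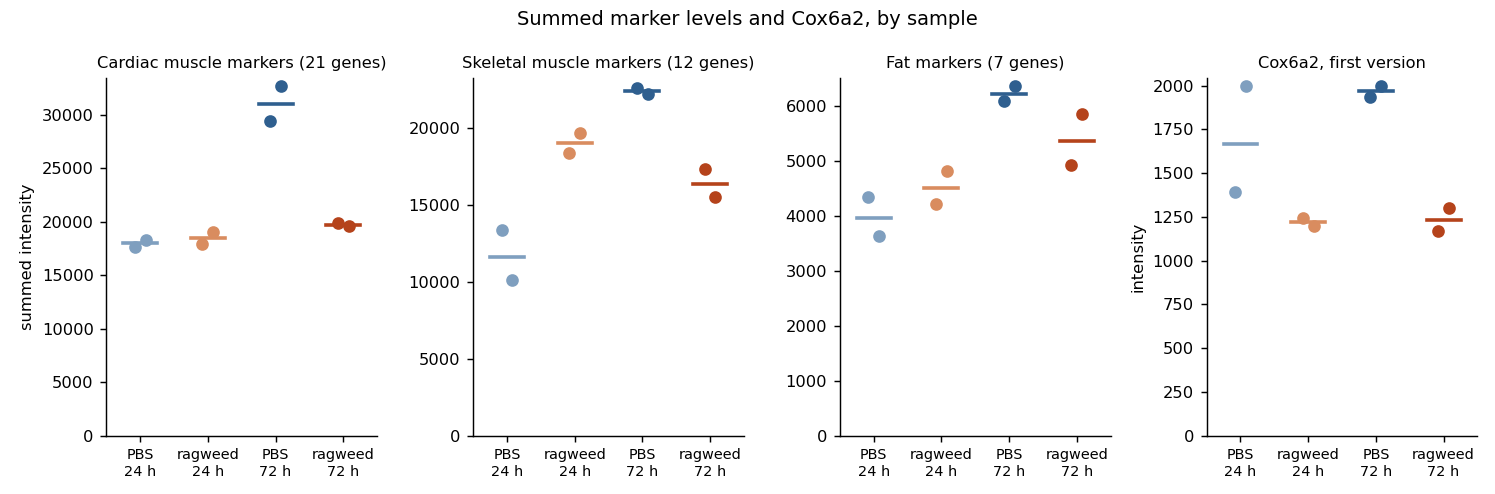
Summed intensity of the measured cardiac muscle, skeletal muscle and fat markers, and intensity of Cox6a2 on first-version A, in each of the 8 samples, with bars at the geometric mean of a group. The 3 sums are highest in PBS at 72 h, while Cox6a2 is between 1169 and 1299 in the ragweed samples and at or above 1391 in the PBS samples.

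The genes of the A table most like Cox6a2 over the 8 samples, by Pearson correlation of log2 intensity, were Aldh2 (0.972), Pcbp2 (0.966), Plpp1 (0.961), Hpgd (0.956) and Zmynd11 (0.953). None of them is on the lists of muscle markers. Those most like Cox7a1, with 5 of 8 samples at the floor, were Coq5 (0.99), Endou (0.975), Snx14 (0.97), Epha2 (0.947) and Ercc3 (0.934). These are the highest of many values in 4 groups of 2 samples and are given as a description.

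Between the PBS groups, whose labels differ in time alone, the member genes had a median log2 difference (72 h minus 24 h) of 0.06. Of these genes 48 were above 0 and 29 below. The PBS groups also differed in marker sums. Cardiac muscle markers summed to 17678 and 18288 at 24 h and to 29440 and 32634 at 72 h. Club cell markers summed to 70537 and 74070 at 24 h and to 135796 and 128374 at 72 h. The part of such differences in the members' values was not tested. Of the 110 probe sets 0 passed the test with limma (0.281% of all), and 9 had an unadjusted p under 0.05 (8.18%, against 8.34% of all). Complex I had 23 of 31 genes above 0 and a median of 0.17, and complex V 5 of 14 and a median of -0.06. Uqcrq, a small subunit of complex III, was at 8533 and 7024 at 24 h and 4960 and 5215 at 72 h, a log2 difference of -0.61 ± 0.12 with an unadjusted p of 0.000902 and an adjusted p of 0.145 by limma. Atp5mpl was at -0.67, Ndufaf6 at -0.87, Ndufaf1 at 0.81, Ndufc1 at 0.71 and Ndufa12 at 0.65. Comparisons of ragweed with PBS at 72 h use the same PBS samples. Between the ragweed groups the median was -0.01, 0 of 110 passed with limma (0.305% of all) and 11 had an unadjusted p under 0.05 (10%, against 10.6% of all).

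Both versions of the A array can be set side by side at 72 h, since they share probe set IDs and coded samples. Of 67 member probe sets tested on both, 38 had the same sign (56.7%, against 56.5% of 6297 probe sets in all). Of 20 with a first-version difference of at least 0.3 in size, 12 kept the sign (60%, against 61.8% of 2337). The median difference of the 67 was 0.00 on the first version and -0.17 on version 2, where it was -0.04 over the 6297. Complex I was below 0 in most probe sets on both: 8 of 26 were above 0 on the first version and 3 of 26 on version 2. The actin ratio of 3' to 5' signal on version 2 A was 0.189 and 0.198 in PBS and 0.801 and 0.578 in ragweed at 72 h. Its part in the version 2 values was not tested. Complex V had 11 of 15 above 0 on the first version and 8 of 15 on version 2, with medians of 0.30 and 0.08. Complex III had 5 of 8 above 0 on the first version and 1 of 8 on version 2. Uqcr11 was at 0.61 and -0.42, Atp5e at 0.94 and -0.04, and Cycs at 0.18 and -0.77.

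**Figure D5:**
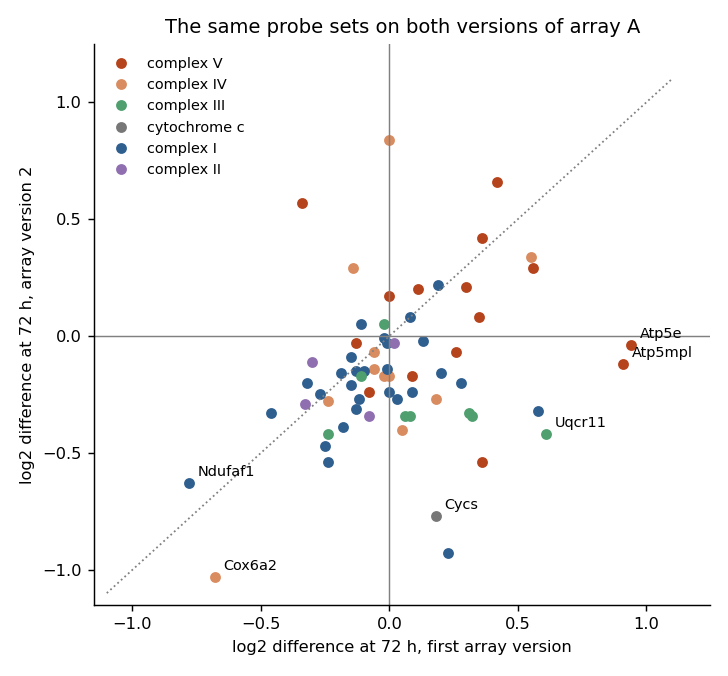
Log2 difference of ragweed minus PBS at 72 h for 67 member probe sets tested on the first version (horizontal) and on version 2 (vertical) of the A array, coloured by complex, with assembly factors under complex I and equality dotted. Cox6a2 is at -0.68 and -1.03, while Atp5mpl (0.91 and -0.12) and Atp5e (0.94 and -0.04) lie far from the line.

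Probe sets of the same gene did not settle the small differences either. Of the 77 genes 28 had more than 1 tested probe set. For 20 of these at 24 h and 18 at 72 h, some probe sets were above 0 and others at or below 0. The count at 72 h holds Atp5md, at 0.36 and, with all samples of 72 h at the floor, at 0.00. The same share over all genes is not given here. Ndufs1 was at -0.02 on its A probe set and 0.96 on a C probe set at 24 h, and Ndufb6 at -0.01 and -0.81 at 72 h.

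Other mitochondrial genes were described by lists chosen with the same earlier results known. Of 32 measured assembly factors of the chain 0 were called at either time, and their median log2 differences were 0.02 at 24 h and -0.10 at 72 h. Of 46 measured proteins of the mitochondrial ribosome 0 were called, with medians of -0.07 and 0.04. Of 19 citric acid cycle genes 1 was called, at 72 h: Ogdh, a subunit of the oxoglutarate dehydrogenase complex, was at 3864 and 3785 in PBS and 2365 and 2213 in ragweed and fell by 0.74 ± 0.09 on the log2 scale (adjusted p 0.0175 by limma). The other 18 did not pass, among them citrate synthase, Cs, at -0.42 (adjusted p 0.296 by limma). The median of the 19 genes was -0.03 at 24 h and -0.03 at 72 h. Of 14 fatty acid oxidation genes 0 were called, with medians of -0.13 at 24 h and -0.10 at 72 h, and of 14 regulators of the chain's genes 0, with medians of 0.04 and -0.14. Of 17 inner membrane carriers 0 were called between ragweed and PBS at either time, and Ucp1 alone between the PBS groups. Of all probe sets 0.23% were called at 24 h, 0.527% at 72 h and 0.281% between the PBS groups.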

How the data were processed

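The authors deposited linear intensity values, 1 per probe set and array. Sources used here do not name the software. First-version PBS arrays were deposited unscaled. First-version A, limited to probe sets also on version 2 A, was brought to a 2% trimmed mean of 800 per array, then quantile normalized, while version 2 B and C were used as deposited. Values were floored at the 40th percentile. An uncoded ragweed array of 24 h, a rescaled copy of the 1a array, was left out. Tables were fitted separately by limma 3.58.1 (R 4.3.3, 1 mean per group, eBayes with trend). The p-values were pooled over the 3 tables and adjusted by Benjamini-Hochberg. The fit was tested on simulated data. A gene stands for its probe set on A before B before C, then the brightest. Genes were named if they were muscle isoforms or their counterparts, core subunits, called, or among the 3 highest or lowest of a comparison, together with the 5 genes most correlated with a muscle isoform. Ndufb5, Ndufb8, Uqcr10, Uqcr11, Atp5l, Atp5d and other members outside that rule were named after their values were seen. Members and lists were chosen with earlier results of these data known.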

Additional observations from a re-analysis of the deposited data

How the results depend on the processing

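With few arrays per group only large differences can pass, and the C array was the least precise. Over all alternatives run, member counts stayed at 0 except at 72 h, where 1 probe set was called above the floor on all arrays (Atp5mpl), 1 with the other array version (Cox6a2) and 1 with p-values adjusted within each table (Atp5mpl). The median over member genes moved at 24 h to 0.05 above the floor on all arrays, to 0.06 with the other version (7 genes) and to -0.03 against PBS of 72 h, and at 72 h to -0.17 with the other version and to 0.02 against PBS of 24 h. With the other version it was also 0.10 for the mean of both times, -0.14 for the difference between the times and 0.24 between the ragweed groups. Leaving out each replicate in turn gave medians from -0.00 to 0.05 at 24 h, from -0.06 to 0.02 at 72 h, from -0.02 to 0.02 for the mean, from -0.08 to 0.02 for the difference, from 0.04 to 0.07 between the PBS groups and from -0.02 to 0.01 between the ragweed groups, with 0 members called each time. Reversed signs were seen for Ndufaf1, at -0.19 at 24 h against PBS of 72 h and at 0.03 at 72 h against PBS of 24 h, for Atp5e (-0.04) and Atp5mpl (-0.12) at 72 h and Atp5mpl between the PBS groups (0.00) on the other version, and for Cox6a2 between the PBS groups, where leaving out replicates gave -0.02 to 0.50. The cause was not tested. The replicate numbers did not pair the samples. With a replicate block 0 members were called and the medians were 0.02 at 24 h and -0.01 at 72 h, while calls over all probe sets at 72 h were 90, against 133 without it.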
